A study of Homo sapiens with 32 samples.

Results

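IHK-44, 1 of the compounds applied in a study of CBP/p300 inhibitors and degraders, was compared with its controls by RNA-seq in RH4, an established human alveolar rhabdomyosarcoma cell line. The comparison was set by the labels alone: all 4 libraries labelled IHK-44 (100 nM for 2 h, 100 nM for 6 h, 1 uM for 2 h and 1 uM for 6 h) against all 4 control libraries (DMSO at 2 h and 6 h, and NT at 2 h and 6 h). These are 8 of the 20 RNA-seq libraries and of the 32 samples of the series. The other RNA-seq libraries were treated with A485, dCBP or JQAD at the same doses and times. DMSO is the usual solvent of such compounds, and the labels neither spell out NT nor say whether IHK-44 inhibits or degrades its targets. The labels give no genetic difference between the groups: all were RH4 cells plated on the day before treatment. By the labels only the treatment and its dose set the groups apart, with 2 h and 6 h on both sides. Whether the NT cells received solvent is not stated. Each combination of treatment, dose and time was sequenced once. The 4 IHK-44 libraries, which differ in dose and time, and the 4 control libraries therefore stand in for replicates, and p-values measure the spread between these samples only.

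CBP (encoded by CREBBP) and p300 (encoded by EP300) are paralogous coactivators that transcription factors recruit to enhancers and promoters, where they acetylate histones and other proteins through a catalytic domain and bind acetylated lysine through a bromodomain. Alveolar rhabdomyosarcoma is a tumour of the muscle lineage that is commonly driven by the fusion transcription factor PAX3-FOXO1, which binds enhancers together with the myogenic factors MYOD1 and MYOG and with MYCN. Genes that depend on such enhancers are the ones usually examined when CBP and p300 are inhibited or removed.

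The IHK-44 libraries held 13466631 to 16799327 counts in protein-coding genes and the controls 15112191 to 16661051. The line's own markers were present: all 14 rhabdomyosarcoma and myogenic markers had a mean of at least 1 CPM (the gene's counts scaled to a common total of coding counts), and their summed level was 2464 to 4559 CPM under IHK-44 against 5027 to 5428 CPM in the controls. Markers of blood, epithelial and endothelial cells summed to at most 3.67 CPM in any of the 8 libraries, and the fibroblast list, most of it the collagen gene COL3A1, summed to 2333 to 2704 CPM under IHK-44 and 2735 to 2834 CPM in the controls. Library totals were recovered from the deposited values. Reads outside the coding genes then made up an estimated 8.20% to 9.58% of the library under IHK-44 and 5.63% to 6.43% in the controls. These ranges did not overlap, and a 2-sided exact permutation test gave 0.0286, its lowest possible p with 4 libraries a side. The share was also high in the dCBP libraries, at 8.36% to 11.3%. In TPM, a length-scaled unit whose total takes in the genes outside the coding set, coding genes held 31.2% to 34.6% of the total under IHK-44 and 39.3% to 44.5% in the controls. NT and DMSO could not be told apart by edgeR: 0 of 13260 genes passed in either direction (0% of those tested lower and 0% higher), 104 had an unadjusted p under 0.05, and DESeq2 also called 0.

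Under IHK-44, 2525 of 12704 tested genes (19.9%) were lower and 2485 (19.6%) higher than in the controls at an adjusted p under 0.05, with edgeR's quasi-likelihood test and time as a covariate. The falls were the larger changes: 620 genes were at least 2-fold lower and 217 at least 2-fold higher. By their CPM alone, 1429 genes (11.2%) lay below all 4 controls in all 4 IHK-44 libraries and 2961 (23.3%) lay above them, and 1399 of the lower and 1939 of the higher calls were separated in this way. The balance of the calls rests on the scaling. The median change over all tested genes was 0.03 on the log2 scale under the TMM scaling used throughout. With limma on log2(TPM + 1) the median was -0.28 and the split became 7388 lower and 299 higher. With limma on log2(CPM + 1) the median was 0.14 and the split 1703 lower and 3817 higher, and with upper-quartile scaling 0.11 and 1933 against 3688. Directions below are therefore relative to the bulk of the coding genes, and fewer cells cannot be told apart from less RNA per cell in these bulk samples. A change given for a gene is the fitted log2 change ± SE over 4 against 4 libraries, with edgeR's Benjamini-Hochberg adjusted p, unless another contrast is named. Of the rises named below, those of BRD2, IRS2, CCNE2, ORC1, RPS27, RPS28 and ATP5MF did not pass under TPM scaling.

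**Figure D1:**
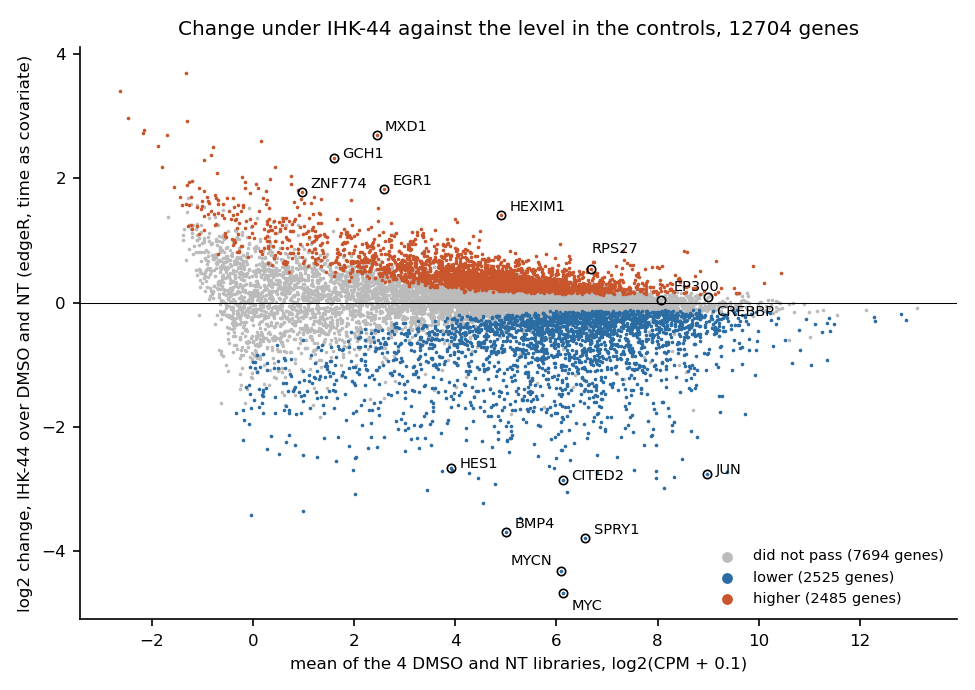
Log2 change under IHK-44 (y axis) against the mean of the 4 DMSO and NT libraries, as log2(CPM + 0.1) (x axis), with 1 point for each of 12704 genes, coloured by whether the gene was lower (2525), higher (2485) or did not pass. MYC and MYCN are the lowest of the labelled genes and MXD1 the highest, and EP300 and CREBBP lie near 0.

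The transcripts of the named targets changed little. EP300 stood at 271 and 244 CPM in DMSO and 313 and 247 CPM in NT (2 h and 6 h), and at 284 and 331 CPM under 100 nM and 270 and 315 CPM under 1 uM IHK-44. The groups overlapped, and the change of 0.05 ± 0.09 (log2, SE, 4 against 4 libraries) did not pass, with an adjusted p of 0.681. CREBBP behaved alike, at 469 to 578 CPM in the controls and 518 to 659 CPM under IHK-44, with a change of 0.08 ± 0.09 and an adjusted p of 0.467. At 6 h alone CREBBP was higher by 0.29 (adjusted p 0.0028) and EP300 by 0.24 (adjusted p 0.0174), and under TPM scaling both were below 0 over all libraries and near the median of all genes. RNA levels do not report the proteins. Of the 14 lysine acetyltransferases tested, 3 were lower and 1 higher, where the share of all genes lower was 19.9%.

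The largest falls named by the rule were in MYC and its paralogue MYCN. MYC, the growth-promoting transcription factor, stood at 75.6 and 67.6 CPM in DMSO and 63.4 and 73.3 CPM in NT at 2 h and 6 h. Under 100 nM IHK-44 it stood at 5.86 CPM at 2 h and 0.833 CPM at 6 h, and under 1 uM at 5.2 and 1.26 CPM. Every IHK-44 library lay far below every control, and the 6 h libraries below the 2 h libraries at both doses. The fitted change was -4.67 ± 0.43 (adjusted p 0.000442). MYCN fell from 61.6 to 73.2 CPM in the controls to 5.93 and 3.33 CPM under 100 nM and 5.05 and 1.02 CPM under 1 uM, a change of -4.32 ± 0.36 (adjusted p 0.000291).

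BMP4, a secreted morphogen of the BMP family, stood at 26.4 to 37.1 CPM in the controls. It stood at 3.43 and 1.73 CPM under 100 nM IHK-44 and at 4.31 and 1.68 CPM under 1 uM, a change of -3.69 ± 0.17 (adjusted p 2.44e-05). SPRY1, a Sprouty protein that restrains receptor tyrosine kinase signalling, fell from 83.3 to 104 CPM to 8.70 and 17.3 CPM at 100 nM and to 2.45 and 1.44 CPM at 1 uM. CITED2, which binds CBP and p300 and competes with HIF-1 for them, had the tightest fall of these genes. It stood at 67.6 to 72.7 CPM in the controls and 9.58 to 11.2 CPM under IHK-44, a change of -2.86 ± 0.07 (adjusted p 1.07e-06) that was the same at 2 h and at 6 h.

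The other genes of the 12 largest falls, taken among called genes whose groups did not overlap and that reached 5 CPM, were FLRT3 (-3.46, an adhesion protein of the FGF pathway), CASS4 (-3.22, a focal adhesion scaffold), PLK2 (-3.06, a Polo-like kinase), GADD45G (-3.02, a stress-response protein), MN1 (-2.98, a transcriptional coregulator), KLF4 (-2.93, a zinc finger transcription factor) and ZFP36L1 (-2.82, an RNA-binding protein that promotes mRNA decay). MN1 differed from the others in its course: it stood at 141 and 136 CPM at 2 h and at 10.4 and 6.5 CPM at 6 h, from 262 to 301 CPM in the controls. The call on MN1 is lost without DMSO at 6 h, without 1 uM IHK-44 at 6 h or without 100 nM IHK-44 at 6 h (adjusted p 0.0524, 0.0546 and 0.0885). The spread between its 2 h and 6 h libraries enters the error of the fit over both times.

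**Figure D2:**
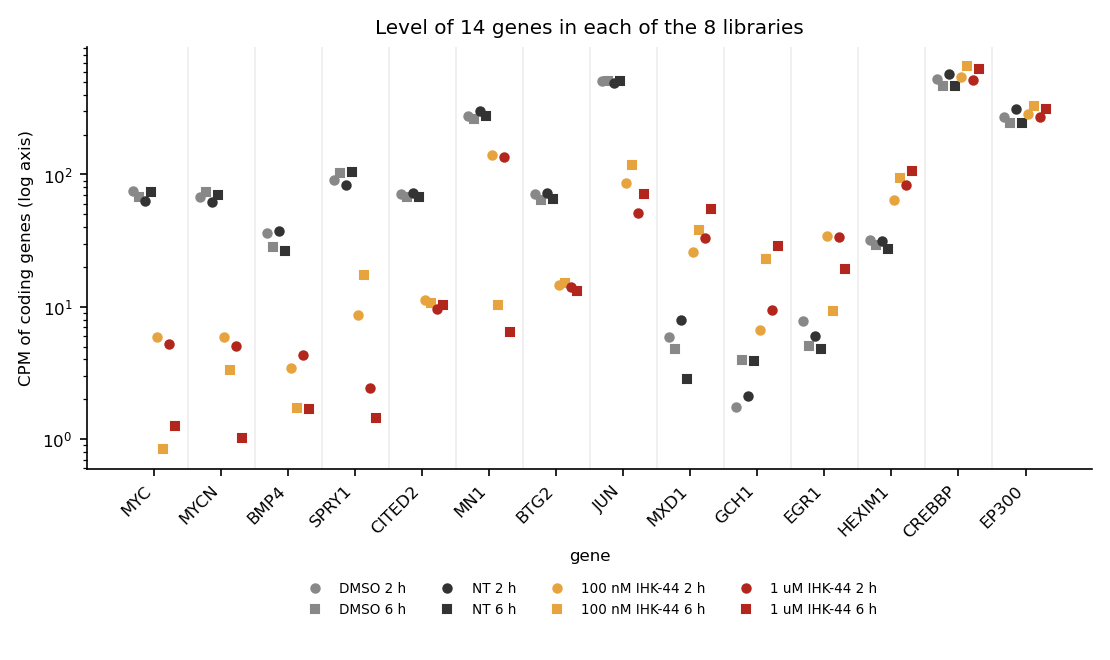
CPM (log axis) of 14 genes in each of the 8 libraries, with colour for treatment and dose and the marker for time. For the 8 genes at the left the IHK-44 points lie below all control points, for MXD1, GCH1, EGR1 and HEXIM1 above them, and for CREBBP and EP300 the points overlap.

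The study's title sets CpG islands beside dependency on CBP/p300, and the promoters of the genes at both extremes are shown for that reason. CpG islands are stretches where the dinucleotide CG, depleted in most of the human genome, is kept at a high density, and they cover many promoters. The 250 bases before the annotated start are given for 3 of the largest falls and 3 of the largest rises, being, among those with 1 RefSeq window, the 2 with the fewest CG and the 1 with the most on each side, on build GRCh38.p14 and read 5′ to 3′ on the gene's strand. Capitals mark each CG. Over the 15349 windows of 10371 tested genes, the number of CG in these 250 bases had a median of 20 and quartiles of 11 and 28. FLRT3 (chr20:14337613-14337862, minus strand) holds 3, MYCN (chr2:15940300-15940549, plus strand) holds 11 and PLK2 (chr5:58460087-58460336, minus strand) holds 37. Among the rises, ZNF774 (chr15:90352034-90352283, plus strand) holds 14, MXD1 (chr2:69914859-69915108, plus strand) 16 and AKAP5 (chr14:64465249-64465498, plus strand) 34. The choice of windows sets this spread within each side.
FLRT3: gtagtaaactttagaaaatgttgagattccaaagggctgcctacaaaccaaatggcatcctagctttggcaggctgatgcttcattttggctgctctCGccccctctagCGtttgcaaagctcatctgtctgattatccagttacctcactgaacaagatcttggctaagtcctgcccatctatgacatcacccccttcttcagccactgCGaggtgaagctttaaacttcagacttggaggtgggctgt
MYCN: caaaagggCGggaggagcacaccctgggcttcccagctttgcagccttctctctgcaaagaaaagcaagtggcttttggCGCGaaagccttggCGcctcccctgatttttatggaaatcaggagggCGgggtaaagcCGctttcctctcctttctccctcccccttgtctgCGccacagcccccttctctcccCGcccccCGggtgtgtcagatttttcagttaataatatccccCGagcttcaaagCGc
PLK2: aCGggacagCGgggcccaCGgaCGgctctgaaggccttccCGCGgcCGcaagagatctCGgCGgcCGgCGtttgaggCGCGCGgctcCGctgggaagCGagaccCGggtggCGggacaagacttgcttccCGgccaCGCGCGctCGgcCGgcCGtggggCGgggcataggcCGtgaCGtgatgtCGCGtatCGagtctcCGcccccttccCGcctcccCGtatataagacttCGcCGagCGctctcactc
ZNF774: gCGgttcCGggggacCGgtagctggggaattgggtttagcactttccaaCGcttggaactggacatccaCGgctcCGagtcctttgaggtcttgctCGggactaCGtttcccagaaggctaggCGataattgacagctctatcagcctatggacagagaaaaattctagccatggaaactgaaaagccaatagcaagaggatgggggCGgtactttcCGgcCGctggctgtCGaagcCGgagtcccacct
MXD1: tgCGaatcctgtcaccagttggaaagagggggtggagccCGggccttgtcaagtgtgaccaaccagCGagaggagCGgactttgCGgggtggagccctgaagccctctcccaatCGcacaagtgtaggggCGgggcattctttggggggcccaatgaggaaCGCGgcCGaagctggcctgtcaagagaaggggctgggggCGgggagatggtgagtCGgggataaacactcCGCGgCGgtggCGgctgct
AKAP5: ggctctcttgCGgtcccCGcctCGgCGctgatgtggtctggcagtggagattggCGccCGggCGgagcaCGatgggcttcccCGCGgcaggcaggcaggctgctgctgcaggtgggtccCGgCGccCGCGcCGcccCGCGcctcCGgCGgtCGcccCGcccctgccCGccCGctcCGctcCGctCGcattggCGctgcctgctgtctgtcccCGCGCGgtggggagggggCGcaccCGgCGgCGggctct

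Over all genes, the lower and higher sets differed in these features, given as descriptions without a test. The CpG ratio (observed CG over that expected from the C and G content) of the 300-base RefSeq promoter window was known for 80.4% of the lower and 83.5% of the higher genes. Its median was 0.787 in the lower genes, 0.843 in the higher genes and 0.827 in the genes that did not pass. A ratio of at least 0.6 was found in 72.8% of the lower, 88.6% of the higher and 80.9% of the other genes, and at a ratio of 0.75 the order was the same, at 55.7%, 71.4% and 64.9%. The G and C content did not run with it (66.0% in the lower and 64.2% in the higher genes). The lower genes were also the longer and more abundant ones: their median span was 57.9 kb against 22.6 kb in the higher and 30.8 kb in the other genes, their median effective transcript length 4009 against 2793 bases, and their median control level 71.7 against 23.7 CPM. Among the genes changed at least 2-fold the median span was 37.9 kb in the lower and 29.0 kb in the higher genes, and the median control level 36.9 and 1.33 CPM. The part of span, transcript length and level in the calls was not tested. Genes within 250 kb of a lower gene were lower in 24.6% of cases on average, against 12% near a higher gene and 16.5% near the others, and those near a higher gene were higher in 26.9%, against 15.0% near a lower gene.

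**Figure D3:**
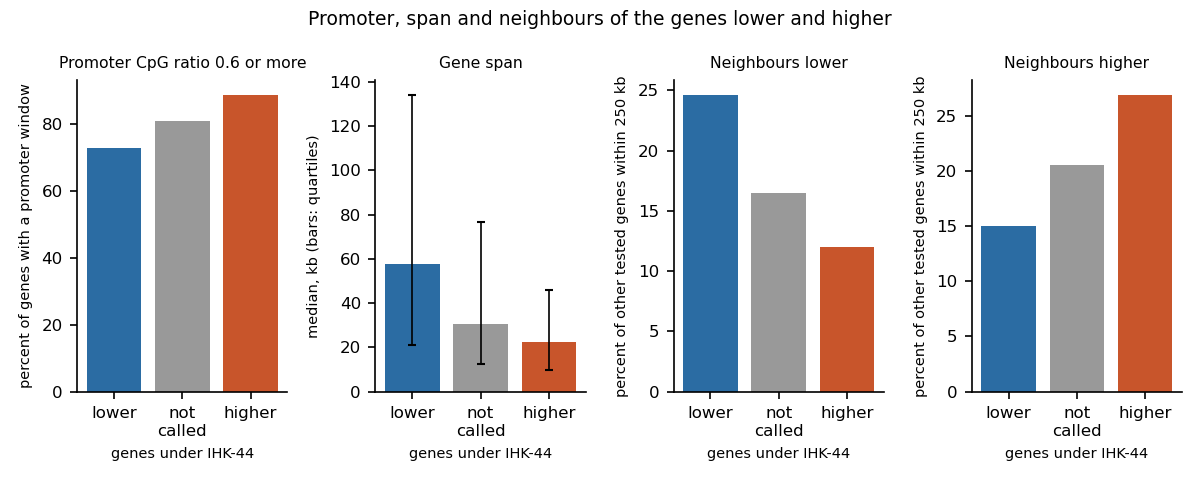
Percent of genes whose promoter window has a CpG ratio of at least 0.6, median gene span in kb with quartiles as error bars, and the mean percent of other tested genes within 250 kb that were lower or higher, for the genes lower, not called and higher under IHK-44. The lower genes have the lowest share of CpG-rich promoters (72.8%) and the longest median span (57.9 kb).

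Genes of the tumour's own programme fell. Of 16 tested core transcription factors of alveolar rhabdomyosarcoma, 14 were lower and 0 higher (median log2 change -1.77), and of 23 known PAX3-FOXO1 target genes 22 were lower and 0 higher (median -1.01). Among all genes 19.9% were lower. The lists share MYCN, MYOD1, MYOG, FOXF1 and TFAP2B. Under upper-quartile scaling 21 of these target genes were lower and 1 higher, and under log2(CPM + 1) 19 and 0. PAX3 stood at 72.6 to 78.0 CPM in the controls, at 54.0 and 46.9 CPM under 100 nM and at 50.1 and 27.6 CPM under 1 uM, a change of -0.89 ± 0.18 (adjusted p 0.00963). FOXO1 fell by 1.49 ± 0.36 (adjusted p 0.0157), from 169 to 186 CPM down to 98.1 and 73.9 CPM at 100 nM and 91.7 and 23.5 CPM at 1 uM. Counts per gene do not tell the fusion transcript from the intact PAX3 and FOXO1 transcripts.

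MYOD1, the master regulator of muscle identity, spread widely between the IHK-44 libraries. It stood at 508 to 677 CPM in the controls, 288 and 270 CPM under 100 nM, and 203 and 27.2 CPM under 1 uM IHK-44. The groups did not overlap, and the 1 uM library at 6 h lay far below the other IHK-44 libraries. The change of -1.76 ± 0.59 had an adjusted p of 0.0457, which rose to 0.0564 to 0.102 without any 1 of DMSO at 2 h or 6 h, NT at 2 h or 6 h, 1 uM at 2 h or 100 nM at 6 h. MYOG, which follows MYOD1 in differentiation, stood at 264 to 300 CPM in the controls and at 211, 111, 200 and 29.8 CPM in the IHK-44 libraries (100 nM and then 1 uM, 2 h before 6 h). Its change of -1.36 ± 0.47 (adjusted p 0.0482) did not pass without DMSO at 2 h or 6 h, NT at 6 h, 1 uM at 2 h or 100 nM at 6 h (0.0576 to 0.112). SOX8, a SOX factor of the tumour's core circuit, had the same pattern, with 809 to 870 CPM in the controls and 43.6 CPM under 1 uM at 6 h, a change of -1.80 ± 0.55 (adjusted p 0.0351). Its call did not hold without DMSO at 6 h, NT at 6 h, 1 uM at 2 h or 100 nM at 6 h (0.0575 to 0.0846).

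The homeobox factor SIX4, which acts with EYA cofactors upstream of the myogenic genes, fell by 1.95 ± 0.26 (adjusted p 0.002). FOXF1, a forkhead factor of mesenchyme, fell by 1.94 ± 0.25, and the neural factor OLIG2 and the adrenergic receptor ADRA2A, both fusion targets, by 1.01 ± 0.14 and 1.59 ± 0.34. FGFR4, the receptor tyrosine kinase most associated with the fusion, moved least of the called targets. It stood at 757 to 812 CPM in the controls, 767 and 544 CPM under 100 nM and 765 and 556 CPM under 1 uM, so that the groups overlapped at 2 h, and its change of -0.36 ± 0.10 (adjusted p 0.0247) did not pass without any 1 of the 6 h libraries DMSO, NT, 100 nM or 1 uM (0.0694 to 0.0834). TWIST1 (0.22, adjusted p 0.372), of the core list, and PLK1 (0.19, adjusted p 0.108), of the target list, did not pass.

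Of 15 tested MEF2 factors and myogenic cofactors, 11 were lower (73.3%) and 0 higher, against 19.9% and 19.6% of all genes. ID1, an inhibitor of basic helix-loop-helix factors, stood at 73.5 to 90.4 CPM in the controls and 16.7 to 20.5 CPM under IHK-44, a change of -2.26 ± 0.08 (adjusted p 7.33e-06). ID3 fell by 2.29 ± 0.43 and MSC (musculin), a repressor of myogenic genes, by 2.06 ± 0.37, so that the list's falls took in inhibitors of myogenesis as well as activators. Of 28 sarcomere and muscle differentiation genes, 11 were lower (39.3%) and 0 higher. The count lower was 8 under upper-quartile scaling, 25 under TPM scaling, 1 with DMSO alone as control and 4 with NT alone, with 0 higher in each. KLHL41, a protein of the myofibril, stood at 145 to 190 CPM in the controls, 114 and 105 CPM at 2 h, and 33.8 and 35.3 CPM at 6 h, a change of -1.51 ± 0.27. CHRNA1, the muscle acetylcholine receptor subunit, fell by 0.49 ± 0.12 (adjusted p 0.0156), which was 0.0534 without 100 nM at 6 h. The giant sarcomere genes TTN (-0.60, adjusted p 0.11) and NEB (-0.38, adjusted p 0.153) did not pass. TTN spread from 908 to 2618 CPM and NEB from 360 to 784 CPM in the controls, and without DMSO at 2 h they passed (TTN -0.82, adjusted p 0.0121, and NEB -0.58, adjusted p 0.007).

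**Figure D4:**
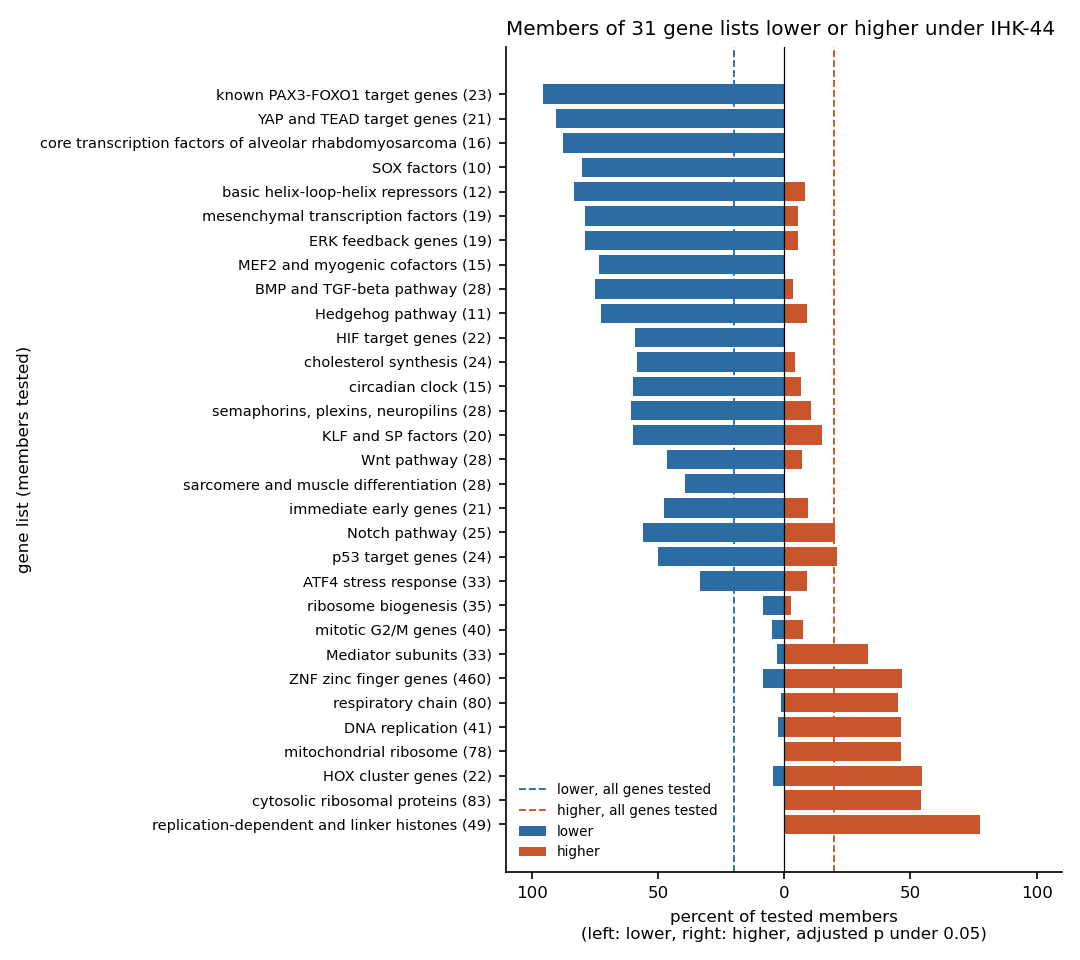
Percent of the tested members of 31 gene lists that were lower (left) or higher (right) at an adjusted p under 0.05, with the number tested in brackets and dashed lines at the shares over all 12704 genes (19.9% and 19.6%). The tumour and signalling lists lie to the left and the ribosomal, respiratory, zinc finger, HOX and histone lists to the right; under TPM scaling more members of the Mediator, DNA replication, ribosomal, respiratory and zinc finger lists were lower than higher, though the medians of these lists stayed above that of all genes, and more of the HOX and histone lists were higher than lower.

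MYC, MYCN and MYCL fell, and MXD1, an antagonist of MYC, rose. Of 12 tested genes of the MYC and MAX network 4 were lower (33.3%) and 2 higher (16.7%), against 19.9% and 19.6% of all genes. MYCL, another MYC paralogue, stood at 59.7 to 77.4 CPM in the controls, 34.4 and 12.1 CPM under 100 nM and 31.4 and 12.8 CPM under 1 uM, a change of -1.85 ± 0.23 (adjusted p 0.00168). MXD1, which binds MAX in place of MYC and represses, was the largest rise named by the rule. It stood at 5.88 and 4.78 CPM in DMSO and 7.88 and 2.86 CPM in NT, and at 26.1 and 37.8 CPM under 100 nM and 33 and 54.7 CPM under 1 uM, a change of 2.70 ± 0.31 (adjusted p 0.00118). The 35 tested ribosome biogenesis genes, many of them known MYC targets, changed mainly late: 3 were lower and 1 higher over both times, at 2 h 7 rose and 0 fell, and at 6 h 32 fell and 0 rose. Over all genes, 9.33% fell and 8.21% rose at 2 h, and 26.6% fell and 29.9% rose at 6 h. NCL, the nucleolar protein nucleolin, stood at 686 to 716 CPM in the controls, 769 and 767 CPM at 2 h and 680 and 651 CPM at 6 h. Its 6 h change was -0.25 (adjusted p 0.00176), and that of NPM1, nucleophosmin, -0.24 (adjusted p 0.00275).

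Signalling genes fell in several pathways. Beside the list counts here and below, 19.9% of all genes were lower and 19.6% higher by the main fit over both times. The ERK feedback genes, which the MAP kinase pathway induces and which limit it, were lower in 15 and higher in 1 of 19 (median -1.59). DUSP6, a phosphatase of ERK, stood at 26.5 to 40.2 CPM in the controls and 4.83 to 11.5 CPM under IHK-44, a change of -2.18 ± 0.19 (adjusted p 0.000388). PHLDA1 fell by 2.46 ± 0.24 and DUSP1 by 1.74 ± 0.13, and ETV4 did not pass (0.05, adjusted p 0.783). Of 21 immediate early genes 10 were lower and 2 higher. JUN, the AP-1 subunit, stood at 491 to 510 CPM in the controls, 85.8 and 119 CPM under 100 nM and 51.1 and 71.6 CPM under 1 uM, a change of -2.75 ± 0.21 (adjusted p 0.000216). FOSL2 fell by 1.61 ± 0.13, JUND stood at -0.01 (adjusted p 0.865) and SRF at -0.12 (adjusted p 0.138). EGR1, a zinc finger factor of the same list, rose, from 4.83 to 7.74 CPM to 34.1 and 9.29 CPM under 100 nM and 33.9 and 19.3 CPM under 1 uM (1.83 ± 0.26, adjusted p 0.00271).

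Of 28 BMP and TGF-beta pathway genes 21 were lower and 1 higher. Beside the ligand BMP4, the ligand GDF15 fell by 1.75 ± 0.11, from 10.6 to 12.5 CPM down to 3.42 to 4.15 CPM, and BAMBI, a pseudoreceptor that dampens the pathway, by 1.99 ± 0.13. MSX1, a homeobox target of BMP signalling, was the member that rose, from 4.18 to 6.89 CPM to 15.0 to 18.6 CPM (1.53 ± 0.12, adjusted p 0.000218). The Notch list had 14 lower (56%) and 5 higher (20%, near the 19.6% of all genes) of 25. Its nuclear effectors HES1 and HEY1 fell by 2.66 ± 0.21 and 1.77 ± 0.23, and its ligand DLL1 by 1.53 ± 0.22. HES1 stood at 13.9 to 16.5 CPM in the controls and 1.63 to 3.69 CPM under IHK-44.

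The Wnt list had 13 lower and 2 higher of 28, with the receptor FZD8 at -2.12 ± 0.12, the ligand WNT5A at -1.27 ± 0.15 and the feedback gene AXIN2 at -1.06 ± 0.13. The Hedgehog list had 8 lower and 1 higher of 11. GAS1, a coreceptor, stood at 290 to 341 CPM in the controls, 81.8 and 61.2 CPM under 100 nM and 52.5 and 9.92 CPM under 1 uM, a change of -2.80 ± 0.51 (adjusted p 0.00681). PTCH1, both receptor and target of the pathway, fell by 1.71 ± 0.16, and the transducer SMO did not pass (0.16, adjusted p 0.168). Of 12 FGF ligands and receptors 8 were lower and 1 higher, among them FGF9 (-1.62 ± 0.20) and FGFR2 (-1.76 ± 0.39). Of 13 IGF pathway genes 9 were lower and 1 higher, with IGFBP3, a binding protein, at -0.62 ± 0.14 and IRS2, an adaptor of the receptor, at 0.98 ± 0.19.

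YAP and TEAD target genes were lower in 19 and higher in 0 of 21 (median -0.72). GADD45A stood at 65.1 to 73.7 CPM in the controls and 14.6 to 21.9 CPM under IHK-44, a change of -2.07 ± 0.11 (adjusted p 5.66e-05). CCN2, a secreted matrix protein and classic target, fell by 1.54 ± 0.30. Of 22 HIF target genes 13 were lower and 0 higher, with DDIT4, an inhibitor of mTORC1, at 16.7 to 24.1 CPM in the controls and 4.08 to 9.50 CPM under IHK-44 (-1.70 ± 0.25). Of 15 circadian clock genes 9 were lower and 1 higher, with the repressor BHLHE40 at -2.19 ± 0.17 and the nuclear receptor RORA at -1.59 ± 0.20. Cholesterol synthesis genes were lower in 14 and higher in 1 of 24. INSIG1, a sterol sensor, fell by 0.90 ± 0.11.

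Among growth brakes, 12 of 24 p53 target genes were lower (50%) and 5 higher (20.8%). Over all genes 19.9% were lower and 19.6% higher, so that the higher share lay near that of all genes. BTG2, an antiproliferative protein that promotes mRNA deadenylation, stood at 64.3 to 72.7 CPM in the controls and 13.2 to 15.1 CPM under IHK-44, at both doses and times (-2.37 ± 0.07, adjusted p 1.9e-06). CDKN1A, the p21 inhibitor of cyclin-dependent kinases, fell by 1.38 ± 0.14 and MDM2, the ligase for p53, by 0.42 ± 0.04. SESN2, a sestrin of the stress response, rose by 1.08 ± 0.11. Of 22 G1 cyclins and inhibitors of their kinases 8 were lower (36.4%) and 4 higher (18.2%). E2F2 stood at -0.94 ± 0.09 and CCNE2 at 0.49 ± 0.09, and RB1 did not pass (0.00, adjusted p 0.984). Of 15 BCL2 family genes 7 were lower (46.7%) and 2 higher (13.3%). BMF, a proapoptotic member, stood at 79.5 to 145 CPM in the controls, 61.2 and 56.0 CPM at 2 h and 6.73 and 6.38 CPM at 6 h, a change of -2.45 ± 0.48 (adjusted p 0.00844).

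Several lists of developmental transcription factors held more lower than higher members, while the HOX cluster, described below, held more higher members. Of 19 mesenchymal transcription factors 15 were lower and 1 higher, of 10 SOX factors 8 and 0, of 12 basic helix-loop-helix repressors 10 and 1, of 20 KLF and SP factors 12 and 3, and of 27 forkhead factors 14 and 4. SNAI1, the Snail repressor of epithelial genes, stood at 50.1 to 75.7 CPM in the controls and 9.36 to 18.6 CPM under IHK-44 (-2.15 ± 0.21, adjusted p 0.000631). SOX4 stood at 135 to 163 CPM in the controls, 55.4 and 43.1 CPM at 2 h and 15.7 and 16 CPM at 6 h, a change of -2.48 ± 0.30. SOX9 fell by 2.23 ± 0.24, SOX11 by 1.06 ± 0.20 and TBX2 by 1.66 ± 0.17. KLF10 changed by -1.92 ± 0.19 and KLF3 by -1.42 ± 0.09, and SP1 did not pass (-0.10, adjusted p 0.226). FOXA2, a forkhead pioneer factor, stood at 12.7 to 14.3 CPM in the controls and 1.62 to 2.74 CPM under IHK-44, a change of -2.71 ± 0.17.

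In other lists more members were higher than lower. For the ribosomal, respiratory, DNA replication and ZNF lists the sign of the median turned under TPM scaling, which moved the median of all genes to -0.28, but their medians stayed above that of all genes under each of the 5 scalings compared. Replication-dependent and linker histones were higher in 38 and lower in 0 of 49 (median 0.48), where 19.6% of all genes were higher. H2BC5 stood at 143 to 172 CPM in the controls, 255 and 331 CPM under 100 nM and 295 and 338 CPM under 1 uM, a change of 0.83 ± 0.05 (adjusted p 9.81e-05), and H4C3 rose by 0.69 ± 0.04. H1-5, a linker histone, did not pass (0.10, adjusted p 0.0847). Histone genes are near-identical copies whose reads the estimate can split, and their messages mostly lack poly(A) tails, so that single members are uncertain. The histone rises came with the higher share of reads outside coding genes given above, and the part of that share in them was not tested. Under TPM scaling 17 histones were higher and 9 lower.

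Of 83 cytosolic ribosomal protein genes 45 were higher and 0 lower by the main fit, and 1 was higher and 56 lower under TPM scaling. The median of the list lay 0.11 above that of all genes by the main fit and 0.050 above it under TPM scaling. RPS27 stood at 99.3 to 108 CPM in the controls and 157 to 166 CPM under IHK-44 (0.54 ± 0.05, adjusted p 0.000544). RPS28 was higher by 0.48 ± 0.05. RPLP0 stood at 1325 to 1410 CPM in the controls and 1441 to 1497 CPM under IHK-44, above all controls, yet its fitted change was -0.01 (adjusted p 0.888), because TMM scaling sets the IHK-44 libraries lower than CPM does. Of 78 mitochondrial ribosome genes 36 were higher and 0 lower, and 2 and 31 under TPM scaling, and of 80 respiratory chain genes 36 were higher and 1 lower, and 3 and 40 under TPM scaling. Their medians lay 0.17 and 0.14 above that of all genes by the main fit, and 0.12 and 0.087 above it under TPM scaling. MRPL16 rose by 0.74 ± 0.08, from 18.0 to 22.5 CPM to 30.4 to 45.5 CPM, and NDUFAB1, a subunit of complex I, by 0.60 ± 0.06. ATP5F1B, of the ATP synthase, did not pass (-0.03, adjusted p 0.634). DNA replication genes were higher in 19 and lower in 1 of 41, and in 0 and 23 under TPM scaling, with ORC1 at 0.49 ± 0.06 and PCNA at 0.34 ± 0.06, of which PCNA stood at -0.04 under TPM scaling, above the median of all genes. The median of the list lay 0.15 above that of all genes by the main fit and 0.068 above it under TPM scaling.

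Of 460 tested ZNF zinc finger genes, a family rich in repressors, 215 were higher and 38 lower by the main fit, and 59 and 143 under TPM scaling. The median of the family lay 0.24 above that of all genes by the main fit and 0.22 above it under TPM scaling. ZNF275 stood at 72.7 to 78.9 CPM in the controls and 130 to 150 CPM under IHK-44 (0.74 ± 0.05, adjusted p 0.000111), and ZNF24 did not pass (-0.10, adjusted p 0.135). HOX cluster genes, which pattern the body axis, were higher in 12 and lower in 1 of 22, and in 6 and 2 under TPM scaling. HOXA10 stood at 14.3 to 16.9 CPM in the controls and 25 to 32.7 CPM under IHK-44, a change of 0.72 ± 0.08, and HOXC13 rose by 1.61 ± 0.22, from 0.937 to 2.77 CPM to 4.6 to 8.24 CPM.

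Of 14 BET proteins and P-TEFb genes, regulators of elongation, 2 were lower (14.3%) and 5 higher (35.7%), against 19.9% and 19.6% of all genes. Under TPM scaling 7 were lower and 1 higher. The median of the list lay 0.093 above that of all genes by the main fit and 0.092 above it under TPM scaling. HEXIM1, the inhibitor of P-TEFb, stood at 27.1 to 32.1 CPM in the controls, 64.2 and 94.3 CPM under 100 nM and 83.2 and 106 CPM under 1 uM, a change of 1.41 ± 0.13 (adjusted p 0.000392). BRD2, a BET protein, rose by 0.45 ± 0.06, and the elongation factor ELL2 fell by 0.75 ± 0.11.

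The largest rises named by the rule started from low levels. GCH1, the first enzyme of tetrahydrobiopterin synthesis, stood at 1.74 to 3.97 CPM in the controls, 6.72 and 23.0 CPM under 100 nM and 9.43 and 28.9 CPM under 1 uM, a change of 2.32 ± 0.18 (adjusted p 0.000196). Beside MXD1, GCH1 and EGR1, the 12 included NIPAL3 (2.18, a membrane protein), AKAP5 (2.03, an anchor of protein kinase A), ONECUT2 (1.91, a homeobox factor), IRAK2 (1.81, a kinase of interleukin-1 signalling), ZNF774 (1.77), SLAIN1 (1.70, a microtubule protein), TENT5C (1.67, a poly(A) polymerase) and GFI1 (1.67, a repressor). NIPAL3 did not pass without DMSO at 6 h or NT at 6 h (adjusted p 0.0609 and 0.0633). The small GTPase paralogues RND1 and RND3 moved in opposite directions. RND3 stood at 53.7 to 67.6 CPM in the controls and 8.87 to 14 CPM under IHK-44 (-2.66 ± 0.11), and RND1 at 0.120 to 0.644 CPM in the controls and 3.39 to 6.80 CPM under IHK-44 (3.69 ± 0.43, adjusted p 0.00124).

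Most of the early calls were kept at 6 h, when many more genes were called. Of 12919 genes, 1205 fell and 1061 rose by 2 h, and 3431 fell and 3868 rose by 6 h. The early and late falls shared 1053 genes, which is 87.4% of the 2 h and 30.7% of the 6 h set, and 15 of the early falls were rises at 6 h. Their median change went from -0.47 to -0.97. Of the genes higher at 2 h, 790 were also higher at 6 h (74.5% and 20.4%), with a median of 0.41 at both times. The change itself differed between the times in 1958 genes (15.2%) towards lower and 1358 (10.5%) towards higher at 6 h, by the interaction of treatment and time. Of the former, 1238 were called lower at 6 h only and 570 at both times. These contrasts share their 8 libraries with the comparison above, and each time rests on 2 IHK-44 and 2 control libraries. Without any 1 of DMSO at 6 h, NT at 6 h, 1 uM at 2 h, 1 uM at 6 h or 100 nM at 2 h, 577 to 768 genes were called towards higher, and without NT, 1 uM or 100 nM at 2 h the 2 h set held 462 to 773 lower and 429 to 659 higher genes.

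SEMA6A, a transmembrane semaphorin that guides axons, had the smallest p for a later fall. It stood at 222 to 251 CPM in the controls, 202 and 186 CPM at 2 h and 14.8 and 16.8 CPM at 6 h (100 nM before 1 uM), so that nearly all of its fall came after 2 h and the doses lay close together. Its change went from -0.44 at 2 h to -4.0 at 6 h, a difference of -3.56 ± 0.10 (adjusted p 3.23e-08). PDZRN3, a ubiquitin ligase of muscle and synapse (-2.70 ± 0.10), EDNRA, the endothelin A receptor (-3.02 ± 0.12), and HDAC5, a class IIa histone deacetylase that holds MEF2 in check (-2.08 ± 0.08), had the same course. In the other direction, CDKN1B, the p27 inhibitor of cyclin-dependent kinases, was below the controls at 2 h, at 49.2 and 49.9 CPM against 64.5 to 71.5 CPM, and above them at 6 h, at 98.2 and 95.7 CPM (0.85 ± 0.09, adjusted p 9.88e-05). MAP2K6, a kinase of the p38 pathway, stood at 0.901 to 1.5 CPM in the controls, 1.38 and 1.26 CPM at 2 h and 11.8 and 14.1 CPM at 6 h (3.64 ± 0.41). The Mediator subunit MED12L (1.17 ± 0.13) and the splicing kinase CLK1 (1.09 ± 0.12) also differed towards higher at 6 h.

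**Figure D5:**
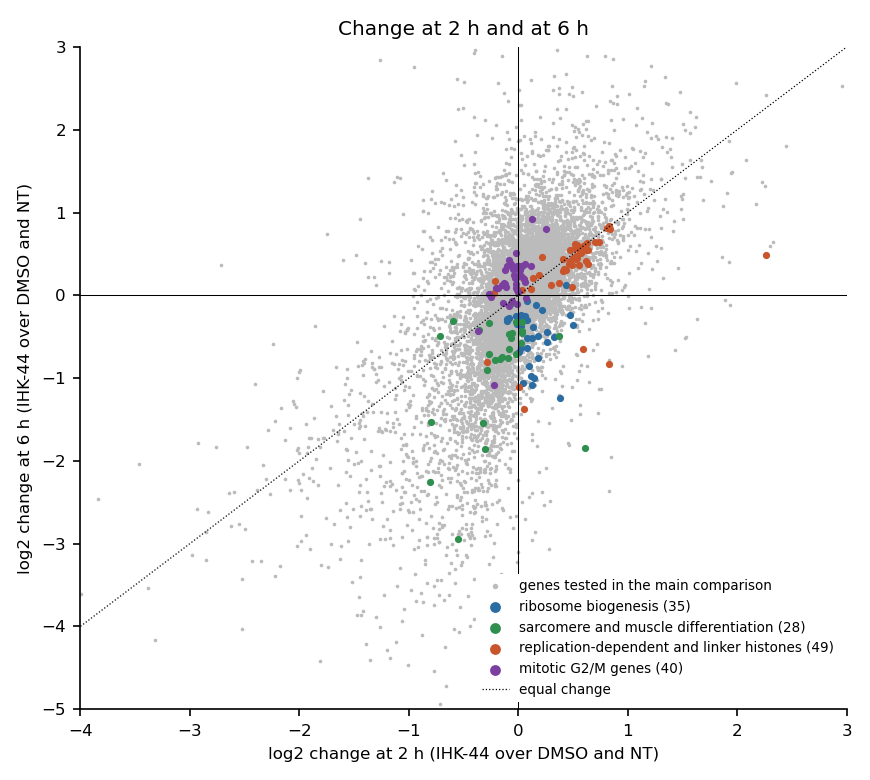
Log2 change at 2 h (x axis) and at 6 h (y axis), each over the 2 DMSO and NT libraries of that time, with 1 point a gene; 34 genes lie outside the axes, and the dotted line marks equal change. Most ribosome biogenesis and sarcomere genes lie below the line, most mitotic genes above 0 at 6 h, and most histone genes near the line.

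By group, the late falls took in ribosome biogenesis (28 of 35 differed towards lower at 6 h and 0 towards higher), sarcomere genes (17 and 0 of 28) and PAX3-FOXO1 targets. Of the 24 listed targets, 17 differed towards lower and 1 towards higher, and 22 were lower and 2 higher at 6 h. The other list sizes in this paragraph are the members tested in the main fit. Over all genes, 15.2% differed towards lower and 10.5% towards higher at 6 h. At 2 h 9.33% of all genes fell and 8.21% rose, and at 6 h 26.6% fell and 29.9% rose. The ERK feedback list was lower in 15 of 19 members already at 2 h and 16 at 6 h, and the BMP and TGF-beta list in 19 and 23 of 28. Mitotic genes were higher late: 0 of 40 were higher at 2 h and 20 at 6 h, and 18 differed towards higher, while over both times 3 were higher and 2 lower, and 0 and 24 under TPM scaling, where the median of the list (-0.28) lay at that of all genes. BUB1B, a checkpoint kinase, was an exception that fell (-0.40 ± 0.06), and TOP2A did not pass over both times (-0.01, adjusted p 0.938). Histones were higher in 36 of 49 at 2 h and 34 at 6 h, and 0 differed towards higher.

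Between the doses, few genes could be told apart. With 2 libraries a dose, edgeR called 2 genes lower at 1 uM than at 100 nM (0.0155% of 12919) and 0 higher (0%), 213 had an unadjusted p under 0.05, and DESeq2 called 20 and 0. The 2 were FOXC2, a forkhead factor of mesenchyme, and SPRY2, a Sprouty gene like SPRY1. FOXC2 stood at 25.6 and 24.6 CPM under 100 nM, 8.99 and 8.60 CPM under 1 uM and 48.2 to 57.7 CPM in the controls, so that the doses gave separate levels, a difference of -1.54 ± 0.12 (adjusted p 0.032). SPRY2 stood at 25.4 and 30.2 CPM under 100 nM, 6.76 and 10.5 CPM under 1 uM and 108 to 116 CPM in the controls, a difference of -1.72 ± 0.14 (adjusted p 0.032). For MYC the dose difference was -0.07, with a 95% interval of -2.14 to 2.00, and for CITED2 -0.17, with -0.42 to 0.09. The intervals of some other named genes left out 0, though these genes did not pass adjustment. Among them were SPRY1 (-2.75, with -3.69 to -1.82) and JUN (-0.77, with -1.09 to -0.45), picked after their values were seen. Without 1 uM at 2 h 29 genes were lower, without 1 uM at 6 h or 100 nM at 2 h 1, and without 100 nM at 6 h 0.

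Against the other compounds, IHK-44 was compared over the same 2 doses and 2 times, with p-values adjusted over all 13001 genes in each of 3 pairs and all 20 RNA-seq libraries in the fit. The labels describe the compounds together as CBP/p300 inhibitors or degraders, and A485 is known as an inhibitor of the acetyltransferase activity. Against dCBP, 0 genes were called lower (0%) and 0 higher (0%) by edgeR, 937 had an unadjusted p under 0.05, and DESeq2 called 1 lower and 0 higher. A fit of the 16 compound libraries with each dose and time as a block, which compares the compounds at matched doses and times, also called 0 and 0. This does not show that both act alike: the 95% interval of the difference was -2.17 to 0.98 for MYC, -0.95 to 0.34 for CITED2 and -0.73 to 0.05 for HEXIM1. GDF15, at 3.42 to 4.15 CPM under IHK-44 and 6.11 to 8.36 CPM under dCBP, had an interval that left out 0 (-1.51 to -0.46), yet did not pass adjustment over all genes (adjusted p 0.396). It was picked after its values were seen.

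Against A485, 93 genes (0.715%) were lower and 84 (0.646%) higher under IHK-44. With each dose and time as a block, 14 and 20 of these passed, and no other gene; of the genes named here TENT5A, INSM1, FOXA2, CITED2, H2BC5 and ATP5MF were among them. TENT5A, a poly(A) polymerase family member, stood at 44.4 to 68.5 CPM under IHK-44, 154 and 179 CPM under 100 nM A485 and 83.7 and 125 CPM under 1 uM A485, a difference of -1.33 ± 0.20 (adjusted p 0.00302). The zinc finger gene INSM1 (-1.17 ± 0.19) and the forkhead factor FOXA2 (-1.80 ± 0.29) were also lower. MYC stood at 37.4 and 43.7 CPM under 100 nM A485 and at 5.75 and 5.54 CPM under 1 uM A485, so that the A485 doses gave separate levels, and its difference over both doses was -3.01 ± 0.67 (adjusted p 0.0309), which did not pass with each dose and time as a block (-2.81 ± 0.71, adjusted p 0.118). CITED2 differed by -1.53 ± 0.29, with 46.6 and 38.1 CPM under 100 nM A485 and 12.9 and 17.6 CPM under 1 uM A485. On the higher side, 28 histones and 22 ribosomal protein genes differed from A485 in the fit of 20 libraries. The main fit tested 49 and 83 of them. H2BC5 stood at 137 to 214 CPM under A485 against 255 to 338 CPM under IHK-44 (0.78 ± 0.09, adjusted p 0.000408), and ATP5MF, of the ATP synthase, at 17.5 to 20.9 against 29.1 to 36.3 CPM (0.70 ± 0.08). Reads outside the coding genes were 4.64% to 6.37% under A485 and 8.20% to 9.58% under IHK-44, and the part of this in the histone difference was not tested. The counts are loose: without 1 library they ran from 7 (without 100 nM A485 at 6 h or 1 uM IHK-44 at 2 h) to 239 (without 1 uM A485 at 2 h) lower, and from 22 (without 100 nM A485 at 6 h) to 97 higher.

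Against JQAD, 2325 genes (17.9%) were lower and 2223 (17.1%) higher. MYC stood at 70.4 to 74.0 CPM in the 4 JQAD libraries, within the control range, and differed by -4.70 ± 0.68 (adjusted p 0.000146). BTG2 stood at 58.6 to 74.8 CPM under JQAD (-2.36 ± 0.22, adjusted p 1.08e-05), and CSRNP2, a cysteine- and serine-rich nuclear protein, at 210 to 232 CPM against 98.7 to 119 CPM under IHK-44 (-1.11 ± 0.11). RGS2, a regulator of G protein signalling, stood at 1.54 to 2.84 CPM under JQAD and 6.06 to 11.2 CPM under IHK-44 (1.75 ± 0.20), and ZNF490 at 12.1 to 14.6 CPM against 23.8 to 39.3 CPM (1.10 ± 0.13). Without 1 uM IHK-44 at 6 h the counts were 1347 and 1230.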

How the data were processed

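For the RNA-seq of RH4 cells, the submitters' processing notes name STAR 2.5.3a, RSEM 1.3.3 and hg38, without their roles. The deposited files give RSEM expected counts, TPM and FPKM for each coding gene, and CPM, which the authors scaled to the coding genes and which are printed here. FPKM served only to recover the library totals, from genes above 50 FPKM. Expected counts were rounded, and library sizes are coding counts. Genes were filtered by filterByExpr, scaled by TMM and tested with edgeR 4.0.16 (quasi-likelihood, R 4.3.3) at a Benjamini-Hochberg adjusted p under 0.05, with time as covariate. Separate fits gave 2 h, 6 h, their interaction and dose, and a fit of all 20 RNA-seq libraries the other compounds. Alternatives used DESeq2 1.42.0, limma 3.58.1 on log2(CPM + 1) or log2(TPM + 1), other scalings, left-out libraries and, for the compounds, a block of dose and time. Tests were checked on simulated counts in which at most 200 genes changed, up or down at random. Far more genes were called in the real data, so that check does not cover the dependence on scaling. Promoter windows came from RefSeq (GRCh38.p14). Named genes were the 12 largest separated falls and rises with at least 5 CPM, 10 fixed genes, and in each gene list or contrast those of lowest p, with up to 2 abundant members not called. Members and lists were chosen with earlier results of these data known. Some genes that the rule names are not reported here.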

Additional observations from a re-analysis of the deposited data

Results flagged for a closer look

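A check took in 274 groups, each the 4 IHK-44 or the 4 control libraries. It covered each named gene and the libraries' coding counts, coding share of TPM and reads outside coding genes. In 8 groups (2.92%) 1 library lay far from the other 3 relative to the range of the group, where chance gives about 1 in 20. A flag can therefore mark a small difference. FGFR4 stood at 812 CPM in DMSO at 2 h, above the other controls. In NT at 2 h GADD45G stood high at 14.1 CPM, SIX4 high at 108 CPM, JUN low at 491 CPM and ATP5F1B low at 705 CPM. FOXF1 stood low at 77.2 CPM in NT at 6 h. FZD8 stood low at 11.8 CPM under 100 nM IHK-44 at 6 h, and RND1 high at 6.8 CPM under 1 uM IHK-44 at 6 h.

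By the interaction of treatment and time, the response differed between 2 h and 6 h in 1958 genes towards lower and 1358 towards higher. The doses differed in 2 genes, and IHK-44 differed from A485 in 93 lower and 84 higher genes and from JQAD in 2325 and 2223. Outside the coding genes that were tested, the mean share of reads was 8.89% under IHK-44 and 6.1% in the controls. It ran from 8.36% to 11.3% under dCBP and from 5.72% to 7.46% under JQAD, so that a high share was not particular to IHK-44.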

How the results depend on the processing

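With 4 libraries a side the counts of calls moved with the processing, and under TPM scaling the signs of several list medians turned. Against 2525 lower and 2485 higher genes, a fit without the time term called 898 and 1058, DMSO alone as control 643 and 657, NT alone 703 and 578, 100 nM alone 544 and 445, 1 uM alone 1063 and 1170, and a 2-fold minimum 620 and 217. Fewer libraries enter the single-control and single-dose fits, and with DMSO or with NT alone 3 of the 23 fusion targets and 5 of the 16 core factors were lower. Limma on log2(TPM + 1) gave 7388 and 299, log2(CPM + 0.1) gave 1565 lower, and log2(CPM + 1) gave 3817 higher. Under TPM, where the median of all genes was -0.28, EP300 (-0.32), CREBBP (-0.29), PCNA (-0.040) and H1-5 (-0.28) changed sign; PCNA lay above that median and the others near it. DESeq2 called 652 higher genes at 2 h, 758 towards higher with time, 20 lower with dose (4 with no filter), 1 lower against dCBP, and 330 lower and 194 higher against A485. With each dose and time as a block, an alternative chosen after seeing the data, IHK-44 differed from A485 in 14 lower and 20 higher genes, from dCBP in 0 and 0 and from JQAD in 2013 and 1758. That fit drops the 4 controls and has 9 residual degrees of freedom in place of 14; the cause of the other shifts was not tested.

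Leaving out 1 library gave 1195 to 2621 lower and 1210 to 2620 higher genes in all, with the smallest counts without 100 nM IHK-44 at 6 h (1195 and 1354), DMSO at 6 h (1254 and 1210), NT at 6 h (1314 and 1225) or 1 uM IHK-44 at 6 h (1517 and 1490). The ranges were 462 to 1478 and 429 to 1271 at 2 h, 577 to 1247 towards higher with time, 0 to 29 lower with dose, 0 to 1 lower against dCBP, 7 to 239 and 22 to 97 against A485, and 1347 to 2377 and 1230 to 2383 against JQAD. By replicate number, no paired analysis was possible because the RNA-seq labels give none; the compounds were paired by dose and time as above, and the controls have no dose. Depth was similar across libraries, and 1 library for each dose and time leaves each such value without a replicate.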

Other observations

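The groups below were not described above, and over all genes 19.9% were lower and 19.6% higher. Of 28 semaphorins, plexins and neuropilins, the axon guidance family of SEMA6A, 17 were lower (60.7%) and 3 higher (10.7%). Of 33 collagens 10 were lower (30.3%) and 0 higher, with 0 lower at 2 h and 14 at 6 h (9.33% and 26.6% of all genes). Of 33 ATF4 stress response genes 11 were lower (33.3%) and 3 higher (9.09%), and of 19 unfolded protein response genes 2 (10.5%) and 6 (31.6%). Of 22 interferon response genes 4 were lower (18.2%, near the share of all genes) and 0 higher. Of 35 splicing factors 10 were lower (28.6%) and 5 higher (14.3%), and of 16 histone deacetylases and sirtuins 6 (37.5%) and 4 (25%). The balance of the splicing list turned with the scaling, to 3 lower and 9 higher under log2(CPM + 1) and 26 and 0 under TPM scaling. In the same settings the ATF4 list had 6 lower and 4 higher, and 28 and 1.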
